A study of Mus musculus with 9 samples.

Results

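CHD7 binding sites near genes of fibroblast growth factor (FGF) signalling were examined in CP (cardiac progenitor) cells. The genes were a set of 36 defined by function, among 21911 protein-coding genes in all. Listed as ligands were 21 genes (Fgf1 to Fgf12, Fgf14 to Fgf18 and Fgf20 to Fgf23). There were 5 receptors (Fgfr1 to Fgfr4 and Fgfrl1) and 10 feedback and ETV genes (Spry1, Spry2, Spry4, Spred1, Spred2, Spred3, Dusp6, Etv1, Etv4 and Etv5). The 9 samples came from wild-type mouse embryonic stem cells, a line derived from C57BL6 mice, which were differentiated towards cardiomyocytes and collected at day 5. Anti-CHD7, an IgG control antibody and no antibody (input) were each used on 3 biological replicates, and no mutant cells were among these samples. CUT&RUN releases DNA fragments around an antibody-bound protein with a tethered nuclease, so that regions rich in fragments mark where the protein sat. The result was 1 list of 3761 CHD7 peaks on the mm10 build, joined over the anti-CHD7 replicates, in which each peak has a start and an end and no height, read count or P-value. Depth and the spread between replicates were therefore unknown, no statistical test over samples was possible, and all values below are descriptions of this list. The labelled cell type could not be checked against marker genes, because binding was measured and not expression.

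CHD7 is a chromatin remodeller that uses ATP to move nucleosomes, and heterozygous loss of it causes CHARGE syndrome, which includes heart defects. FGF ligands are mostly secreted proteins that bind receptor tyrosine kinases together with heparan sulphate, and the receptors act through RAS and the kinase ERK. ERK activity induces the ETV transcription factors together with sprouty, SPRED and DUSP proteins that damp the same pathway, and Fgf8 and Fgf10 mark the second heart field, the progenitors of the outflow tract and right ventricle.

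A peak was assigned to a gene if its midpoint fell in the regulatory domain of that gene. This domain covered 5 kb upstream and 1 kb downstream of 1 transcription start site (TSS), which is its basal part, and was extended on either side by at most 1 Mb, stopping where the basal part of a neighbouring gene began. Peaks were found in the domains of 14 of the 36 genes, which were Fgf4, Fgf10, Fgf11, Fgf14, Fgf15, Fgfr1, Fgfr2, Fgfr4, Spry2, Spred1, Spred2, Dusp6, Etv4 and Etv5. The other 22 had none. The central bases of the peaks nearest the results are shown first, because they carry the base composition and the motifs described later. They comprise the peaks within 5 kb of a TSS of their gene, the Fgf10 peaks within 200 kb of its TSS and the nearest peaks of Fgfr2 and Fgfr4. Each is 300 bp of GRCm38.p6 (mm10) around the midpoint, 5′ to 3′ on the plus strand, except that the Dusp6 stretch stops at the TSS after 225 bp. Capitals mark matches on either strand to the GATA, NKX2-5, ETS, TCF/LEF or GC box motif, which are spelled out with their results.
Fgf10 intronic peak, chr13:118758995-118759294, plus strand: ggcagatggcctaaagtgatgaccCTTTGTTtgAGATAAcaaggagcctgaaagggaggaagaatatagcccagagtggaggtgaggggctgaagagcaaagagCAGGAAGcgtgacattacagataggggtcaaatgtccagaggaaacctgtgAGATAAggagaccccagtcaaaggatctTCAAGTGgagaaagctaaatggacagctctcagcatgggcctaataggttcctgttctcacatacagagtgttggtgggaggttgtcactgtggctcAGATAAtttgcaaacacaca
Fgf10 upstream peak, chr13:118594696-118594995, plus strand: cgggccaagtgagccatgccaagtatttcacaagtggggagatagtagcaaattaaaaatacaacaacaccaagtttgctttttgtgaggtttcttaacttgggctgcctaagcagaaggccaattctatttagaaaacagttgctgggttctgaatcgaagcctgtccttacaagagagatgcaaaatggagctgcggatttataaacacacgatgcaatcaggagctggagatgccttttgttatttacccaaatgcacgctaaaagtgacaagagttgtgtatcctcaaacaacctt
Fgf11 upstream peak, chr11:69802727-69803026, plus strand: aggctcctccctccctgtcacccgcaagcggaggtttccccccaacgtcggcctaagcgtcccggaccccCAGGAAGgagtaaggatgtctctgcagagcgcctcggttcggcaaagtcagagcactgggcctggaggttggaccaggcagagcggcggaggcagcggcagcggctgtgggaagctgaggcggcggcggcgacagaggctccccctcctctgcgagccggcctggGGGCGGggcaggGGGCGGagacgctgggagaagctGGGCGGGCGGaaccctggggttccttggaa
Dusp6 promoter peak, chr10:99263006-99263230, plus strand: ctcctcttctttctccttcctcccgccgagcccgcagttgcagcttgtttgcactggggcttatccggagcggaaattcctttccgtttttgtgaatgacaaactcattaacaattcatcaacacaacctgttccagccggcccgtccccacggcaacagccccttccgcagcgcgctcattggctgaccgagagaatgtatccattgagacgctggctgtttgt
Etv4 upstream peak, chr11:101787410-101787709, plus strand: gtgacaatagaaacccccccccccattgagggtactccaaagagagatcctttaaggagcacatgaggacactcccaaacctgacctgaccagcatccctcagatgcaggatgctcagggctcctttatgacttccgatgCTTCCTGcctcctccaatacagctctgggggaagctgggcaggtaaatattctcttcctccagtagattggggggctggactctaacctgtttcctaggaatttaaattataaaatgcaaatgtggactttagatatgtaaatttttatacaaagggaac
Fgfr2 downstream peak, chr7:130127313-130127612, plus strand: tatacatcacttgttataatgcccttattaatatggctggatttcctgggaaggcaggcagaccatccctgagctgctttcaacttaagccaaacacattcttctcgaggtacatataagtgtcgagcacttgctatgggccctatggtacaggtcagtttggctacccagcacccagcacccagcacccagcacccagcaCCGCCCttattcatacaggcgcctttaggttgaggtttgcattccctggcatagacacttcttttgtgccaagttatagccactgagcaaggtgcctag
Fgfr4 downstream peak, chr13:55182289-55182588, plus strand: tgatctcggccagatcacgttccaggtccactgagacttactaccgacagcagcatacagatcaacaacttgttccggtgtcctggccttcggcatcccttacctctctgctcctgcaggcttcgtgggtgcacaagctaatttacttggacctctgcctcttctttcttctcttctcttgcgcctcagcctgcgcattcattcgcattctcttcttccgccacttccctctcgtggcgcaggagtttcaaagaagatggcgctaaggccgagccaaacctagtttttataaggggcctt

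**Figure D1:**
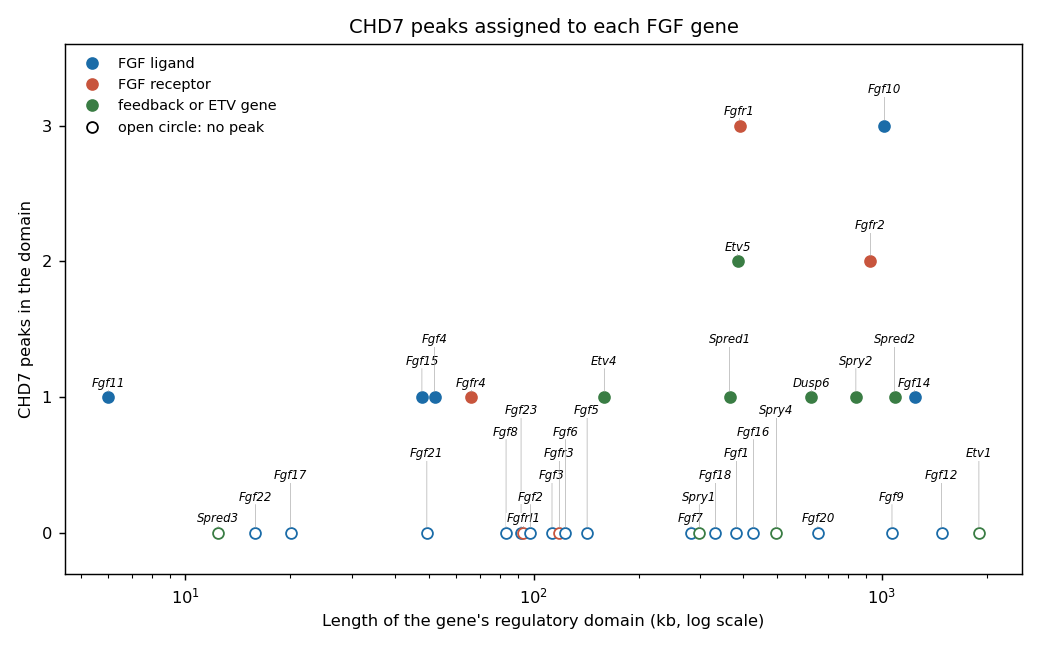
Number of CHD7 peaks in the regulatory domain of each of the 36 FGF genes (vertical axis) against the length of that domain (horizontal axis, kb, log scale), with 1 point a gene coloured by role and open points for genes without a peak. Fgf10 and Fgfr1 had 3 peaks each, Fgfr2 and Etv5 had 2, and the genes without a peak covered nearly the whole range of lengths.

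The share of FGF genes with a peak was 38.9% (14 of 36, Wilson 95% confidence interval 24.8 to 55.1%, which covers counting error only). Over all genes it was 22.7% (4978 of 21911). FGF genes lie in long domains, however (median 290870 bp, over all genes 90166 bp), and longer domains hold more peaks. The mean share among other genes with domains between 0.8 and 1.25 times as long gave an expected count of 11.1 FGF genes, or 30.7%. The observed count was 1.26 times this, and the confidence interval of the share, divided by the expected share, ran from 0.806 to 1.79 and so included 1. The domains of the 14 genes with a peak had a median length of 387568 bp, and those of the 22 without had 132820 bp. In total 19 peaks (0.505% of the list) gave 20 gene and peak pairs, where genes of like domain length gave 16.9. There were 1.26 peaks per Mb in the merged FGF domains and 1.42 per Mb in the genome. At least 2 peaks were found for 4 FGF genes, where genes of like length gave 3.84 and 5.88% of all genes had as many. In fixed windows, which ignore the domains, 14 FGF genes had a peak within 100 kb of the TSS and 29 within 500 kb, beside 36.8% and 77.3% of all genes.

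By role, 5 of 21 ligand genes (23.8%, interval 10.6 to 45.1%), 3 of 5 receptor genes (60.0%, 23.1 to 88.2%) and 6 of 10 feedback and ETV genes (60.0%, 31.3 to 83.2%) had a peak. Genes of like domain length gave 5.74, 1.43 and 3.90. The ligand count was thus close to the count for like genes. The intervals of the 3 shares overlapped, and no difference between the roles was read from these counts. The same number of peaks, 6, served the 5 receptor genes and the 21 ligand genes, and 7 served the feedback and ETV genes.

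Among the ligands, Fgf10 had the most peaks. Fgf10 is secreted by second heart field progenitors and signals mainly through the IIIb form of Fgfr2. Its first peak (peak2899, chr13:118593837-118595855) was 2019 bp wide and intergenic, with its midpoint at -119853 bp from the TSS chosen for the domain and at -74945 bp from the nearest annotated Fgf10 TSS. The second (peak2900, chr13:118758599-118759691) was 1093 bp wide and lay at 44446 bp, in intron 1. The third (peak2901, chr13:119301063-119301805) was 743 bp wide and lay 586735 bp downstream, where the TSS of Nnt, which encodes a mitochondrial transhydrogenase, was nearer at 107518 bp. Only the upstream and intronic peaks therefore had Fgf10 as the nearest gene, and these are the 2 that the study lists for Fgf10. The upstream peak also fell in the domain of Mrps30 and the other 2 in that of Nnt. Genes with domains as long as that of Fgf10 (1015744 bp) averaged 0.743 peaks, and 41.5% of them had any.

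Fgf4, a growth factor of the early embryo, and Fgf15, which in the adult gut signals to the liver to restrain bile acid synthesis, are neighbours on chromosome 7 and shared 1 peak (peak1633, chr7:144888622-144889216, 595 bp). Its midpoint was at -7612 bp from the Fgf15 TSS and 27533 bp downstream of the Fgf4 TSS, between the genes. The same peak was 50324 bp downstream of the TSS of Fgf3, a further ligand of this cluster, but outside its domain. The count of 5 ligand genes thus rested on 6 peaks, of which 1 was used for 2 genes.

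Fgf11 and Fgf14 encode FGF homologous factors, which stay inside the cell and bind voltage-gated sodium channels instead of FGF receptors. They and Fgf12 are in the ligand list here, so its counts are not of receptor ligands alone. The Fgf11 peak (peak2387, chr11:69802460-69803293, 834 bp) lay at -1020 bp from the TSS, in a domain of 6001 bp that had no extension. Of 317 genes with a domain of this length or less, 19 had a peak. The Fgf14 peak (peak3086, chr14:123990217-123991433, 1217 bp) lay 202077 bp downstream of the TSS, in intron 3 of Fgf14, and also fell in the domain of Itgbl1. Among the peaks of the ligand list, only that of Fgf11 was within 5 kb of a TSS. The Fgf10 and Fgf14 intronic peaks were the only 2 of the 19 inside their own gene.

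**Figure D2:**
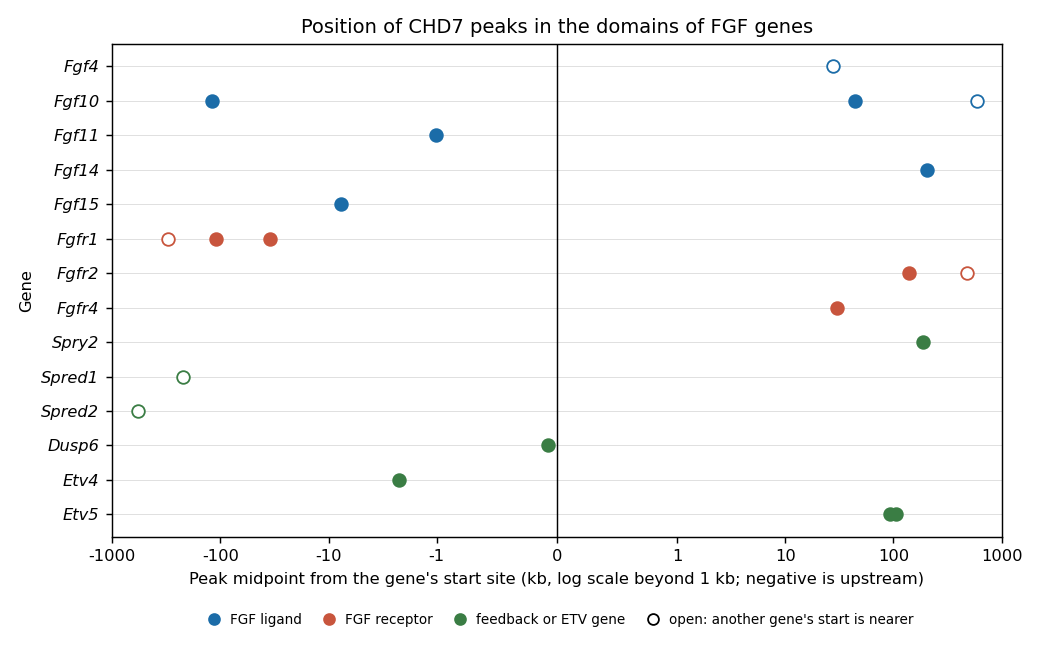
Position of each CHD7 peak in the domain of an FGF gene relative to the TSS of that gene (horizontal axis, kb, linear within 1 kb of the TSS and logarithmic beyond, negative upstream), with 1 row a gene and open points where a TSS of another protein-coding gene was nearer. Dusp6, Fgf11 and Etv4 had a peak within 5 kb upstream, and 11 of the 20 positions were over 100 kb away.

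The receptor Fgfr1, which transduces FGF signals in mesoderm, had 3 peaks, all upstream and all shared with the domain of the next gene, Tacc1. The nearest (peak1666, chr8:25483478-25484848, 1371 bp) was at -34596 bp, in an intron of the long non-coding gene Gm31045. The next (peak1665, chr8:25408151-25409659, 1509 bp) was at -109854 bp, in an intron of the pseudogene Gm39147. The farthest (peak1664, chr8:25213079-25213441) was the narrowest of the 19 at 363 bp and was at -305499 bp, in intron 1 of Tacc1 and 11718 bp from a Tacc1 TSS. For the first 2 of these, the nearest TSS was that of Fgfr1. Genes of like domain length averaged 0.697 peaks.

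Fgfr2, the receptor of Fgf10, had 2 peaks, both intergenic, downstream of the TSS and shared with the domain of Wdr11. The nearer (peak1587, chr7:130127261-130127664, 404 bp) was 138728 bp from the TSS of the domain and 40421 bp from the closest annotated Fgfr2 TSS. The other (peak1586, chr7:129783514-129784234, 721 bp) was 482317 bp away, and a TSS of Wdr11 was closer, at 154841 bp. With domains drawn from the 5′-most TSS of each gene, Fgfr2 had 0 peaks and Fgfr1 had 2, so that 2 receptor genes had a peak. Annotated Fgfr2 starts reach out to position 133123350 of chromosome 7, far upstream of the TSS at 130266191 used for the main domain. Fgfr4, a receptor best known from liver and muscle, had 1 intergenic peak (peak2809, chr13:55182137-55182741, 605 bp) 29799 bp downstream of its TSS, which also fell in the domain of Nsd1, a histone methyltransferase gene. With each peak given only to the nearest of the TSSs used for the domains, Fgfr4 had 0. Over all annotated protein-coding transcripts, however, an Fgfr4 TSS was the nearest, at 26322 bp. No receptor gene had a peak in its basal domain. Fgfr3, whose activating mutations cause dwarfism, and Fgfrl1, a receptor that lacks the kinase domain, had none at all.

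**Figure D3:**
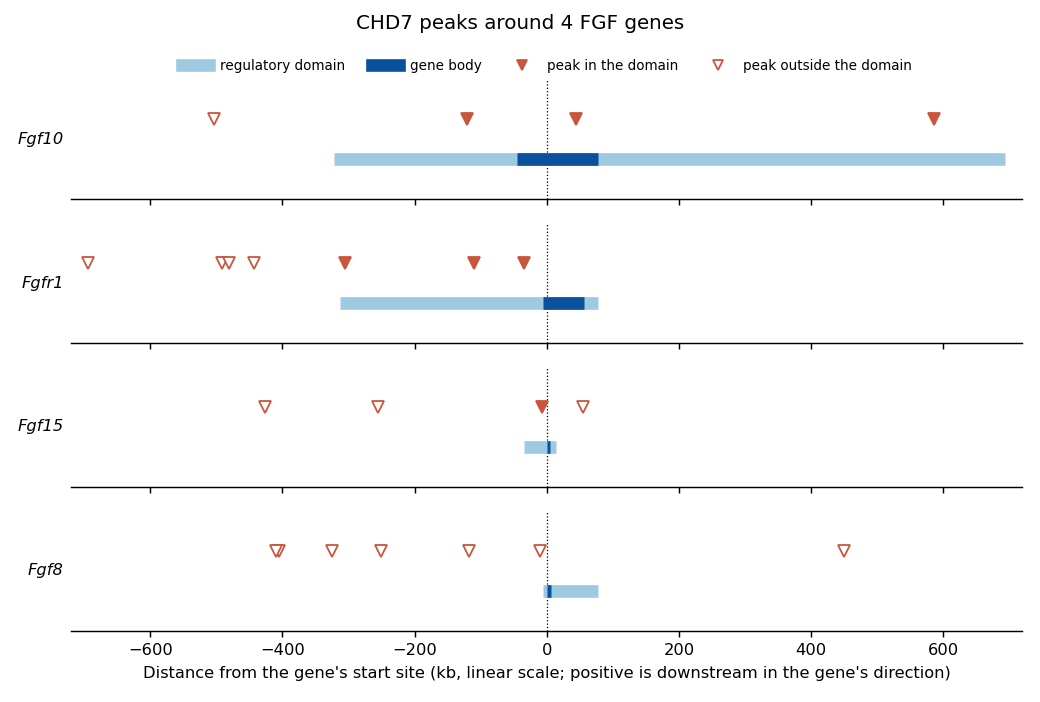
Maps of 4 FGF genes drawn to scale against the distance from each TSS (horizontal axis, kb, in the direction of transcription), with the regulatory domain in light blue, the gene body in dark blue and CHD7 peaks as triangles, open where they lie outside the domain. Fgf10 and Fgfr1 hold 3 peaks each in their domains, Fgf15 holds 1, and the domain of Fgf8 holds none although 7 peaks lie within 500 kb.

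The feedback gene with the closest peak was Dusp6, which encodes a phosphatase that inactivates ERK in the cytoplasm. Its peak (peak2221, chr10:99262792-99263520, 729 bp) had its midpoint at -75 bp and ran from -439 to 289 bp around the TSS. It was the only one of the 19 within 1 kb of a TSS (5.26%, interval 0.935 to 24.6%, beside 15.6% of all peaks), and it was assigned to no other gene. The Fgf11 peak, at -1020 bp, lay just beyond this limit. Etv4, an ETS transcription factor gene induced by FGF signals, had a peak (peak2483, chr11:101787276-101787843, 568 bp) at -2250 bp that was also its own alone. Its relative Etv5 had 2 peaks only 12569 bp apart, downstream of the gene and shared with Tra2b. The wider of them (peak3274, chr16:22345807-22348117) measured 2311 bp, wider than 98.6% of all peaks, and lay 92757 bp from the TSS. The other (peak3273, chr16:22334054-22334731, 678 bp) lay 105326 bp away. With each peak given only to the nearest of the TSSs used for the domains, Etv5 had 0. Over all annotated protein-coding transcripts, however, an Etv5 TSS was the nearest, at 54867 bp from the wider peak and 67436 bp from the other. Together, 2 of the 3 ETV genes had a peak.

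Of the sprouty genes, whose products block receptor tyrosine kinase signalling at the membrane, Spry2 had a peak (peak3071, chr14:105709575-105710181, 607 bp) 186941 bp downstream, shared with the domain of Ndfip2. Spry1 and Spry4 had none. Of the SPRED genes, whose products bring neurofibromin to RAS, Spred1 had a peak (peak419, chr2:116899980-116900676, 697 bp) at -221046 bp, in an exon of the long non-coding gene D330050G23Rik and only 12121 bp from the TSS of Tmco5. The Spred2 peak (peak2285, chr11:19349759-19350247, 489 bp) was at -574439 bp, and the closest protein-coding TSS was that of Meis1, a homeobox gene, at 331018 bp. A peak nearer to Spred2, 204862 bp downstream, lay outside its domain, in those of Rab1a and Actr2. Spred3 had none. The assignments of Spred1 and Spred2, as that of Fgf4 above, rested on peaks that were closer to other genes, and each had 0 when only the nearest TSS counted.

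Among the 22 genes without a peak in the domain, the nearest peak on the chromosome was between 9925 and 6293782 bp from the TSS, with a median of 185270 bp, and 5 of them had a peak within 100 kb. Fgf8 was the closest case. This ligand is needed for outflow tract formation, and a peak lay at -9925 bp from its TSS, beyond the end of its domain at -5.72 kb, in the domain of the neighbouring Npm3. There were 7 peaks within 500 kb of the Fgf8 TSS, 6 of them upstream, and none was assigned to it. Its relative Fgf17 had peaks 24132 and 37860 bp downstream, both in the domain of Fam160b2. For Fgf18, of the same subfamily, the nearest peak was at -437051 bp. Fgf23, a bone hormone of phosphate balance, and Fgf6, a ligand of muscle, are neighbours, and the same peak lay 48788 and 106104 bp downstream of their starts, in the domains of Ccnd2 and Tigar.

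Fgf9, a ligand with a role in epicardial signalling to the myocardium, had the nearest peak at -85954 bp. The distances were 1050347 bp for Fgf5, which ends the growth phase of hair, 686250 bp for Fgf7, the keratinocyte growth factor, and 471572 bp for Fgf2, the basic FGF. They were -207669 bp for Fgf1, the acidic FGF, -190394 bp for Fgf21, a liver hormone, and -138993 bp for Fgf22, which acts at synapses. The nearest peak was 2334913 bp from Fgf20, a ligand of the inner ear, and -1288627 bp from Fgf12, the third of the homologous factors here. Fgf16, a ligand expressed in the heart, is on chromosome X, where the list holds 14 peaks in all, and had none within 6293782 bp. In the other roles the nearest peak was 109935 bp from Fgfr3, -125144 bp from Fgfrl1, 180145 bp from Spry1, -525025 bp from Spry4 and 121874 bp from Spred3. Etv1 had the longest domain of the set, 1898377 bp, and its nearest peak was 2107019 bp away. Of the 102 other genes with domains at least as long, 68 had no peak. Etv1 and Fgf12 thus had no peak in the longest 2 domains of the set, while the shortest, that of Fgf11, held one.

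Measured to the TSS of the FGF gene itself, the median distance over the 20 pairs was 107590 bp, against 57406.5 bp over all 6818 pairs of a gene and a peak. Of the 20, 11 (55.0%) were over 100 kb away, against 35.5% of all pairs. Longer domains reach farther, and the pairs of genes with domains of like length gave 9.98 of 20 (49.9%). Upstream and downstream positions were equally frequent, at 10 each. Measured to the nearest TSS of any protein-coding transcript, 3 of the 19 peaks (15.8%, interval 5.52 to 37.6%) were within 5 kb, beside 32.0% of all peaks, and 10 were within 50 kb (52.6%, 31.7 to 72.7%, beside 75.4%). Neither share was matched for domain length, and longer domains hold positions farther from a TSS. Neither was therefore read as a difference from the list. By their midpoints 13 peaks were intergenic, 5 were in introns and 1 was in an exon of a non-coding gene. Only Fgf11, Dusp6 and Etv4 had a peak in the basal domain, beside 3.17% of all genes. Of the 19 peaks, 15 also fell in the domain of a gene outside the set, and for 14 the nearest TSS was that of an FGF gene. These counts and the split into intergenic, intronic and exonic peaks have no share over all peaks beside them. They were therefore not read as a difference from the list. Extended domains of neighbouring genes overlap under this rule, and the 3761 peaks of the list gave 6818 pairs, so shared peaks arise by construction. Which gene such a shared peak acts on was not tested.

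**Figure D4:**
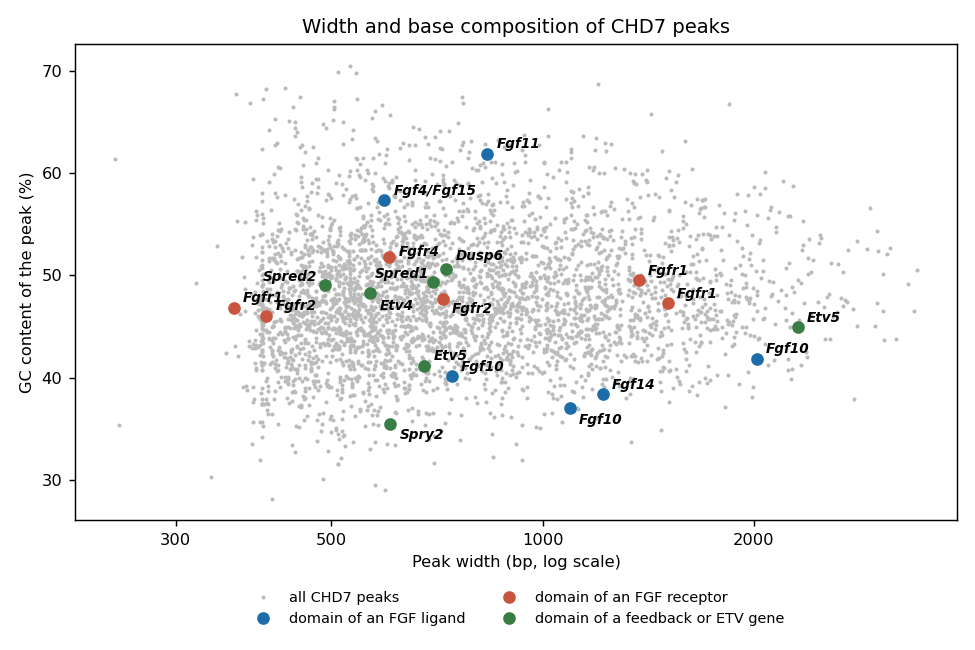
Width (horizontal axis, bp, log scale) and GC content (vertical axis, %) of all 3761 CHD7 peaks in grey and of the 19 FGF peaks in colour by role. The FGF peaks spread over the range of the list, from the GC-rich Fgf11 peak (61.9%) to the AT-rich Spry2 peak (35.4%) and from 363 to 2311 bp.

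In width the FGF peaks were like the list as a whole, with a median of 721 bp (363 to 2311 bp) against 703 bp (quartiles 530 and 1053 bp). The widest 3, of Etv5, Fgf10 and Fgfr1, were beyond the upper decile of all peaks, 1478 bp. The median GC content was 47.2% (35.4 to 61.9%) against 47.5%. The Fgf11 peak was the richest in GC (61.9%) and in CpG (5.52 per 100 bp), and the Dusp6 peak was next in CpG (4.80), followed by the Fgfr4 peak (3.64), beside a median of 1.15 for all peaks. The Fgf10 peaks were AT-rich, with 41.9, 37.1 and 40.1% GC, as were those of Fgf14 (38.4%) and Spry2 (35.4%) and the narrower Etv5 peak (41.2%). The next peak was a median of 164299 bp away, against 131168 bp for all peaks, and 3 of the 19 (15.8%) had another within 50 kb, beside 24.4% of all peaks.

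Bases marked as repeats in the genome made up 57.9% of the wider Etv5 peak, beside a median of 13.2% over all peaks. The central 300 bp of the Fgfr1 peak nearest its TSS were 90.7% pyrimidine. Over all peaks the larger of the pyrimidine and purine shares had a median of 53.7%. The part of repeats or of such a tract in the peak calls was not tested.

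Both strands of the central 300 bp of each peak were searched for motifs, and no match overlapped one of another motif in the FGF peaks. The GATA motif (AGATAA) was in 3 of the 19 windows, beside 17.4% of all windows. The ISL1 motif (CTAATTG or CTAATGG) was in 1 (5.24% of all), and the NKX2-5 motif (TCAAGTG or TTAAGTG) was in 3 (8.27%). The T-box motif (AGGTGT) was in 1 (16.2%), and the MEF2 motif was in none (2.79%). The ETS motif (CCGGAAG or CAGGAAG), the site type of the ETV factors, was in 3 (15.3%). The TCF/LEF motif (CTTTGAT or CTTTGTT) was in 4 (13.1%), and the GC box (GGGCGG) was in 3 (11.2%). With 19 windows, 1 more or less moves a share by over 5 points, and none of the 8 counts was read as a difference from the list. In 6 windows no motif was found, and in the whole list 37.2% had none.

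The intronic Fgf10 window, the first sequence above, held 3 GATA matches and 1 each of the TCF/LEF, ETS and NKX2-5 motifs, all on the strand shown. In all, 21 of the 3761 windows (0.558%) had 3 or more GATA matches and 19 (0.505%) had 4 or more kinds of motif, and this was the only FGF peak among either. Both cut-offs equal the counts of this window, which held the most kinds of motif among the FGF peaks. The 2 shares therefore describe the window and were not read as a difference from the list. Over its whole width the intronic peak held 4 GATA, 2 NKX2-5, 2 TCF/LEF, 1 ETS and 1 MEF2 matches. The study reports GATA, NKX2.5, ISL1 and TBX1 binding sites in this element. Of these the search found GATA and NKX2-5 matches, and no ISL1 or T-box match. A match to a string does not measure whether a protein was bound. The search was for short fixed strings and can miss sites spelled otherwise. The upstream Fgf10 window held no match, but the rest of that 2019 bp peak held 2 GATA matches and 1 each of the NKX2-5, ETS and TCF/LEF motifs. The third Fgf10 window held 1 GATA and 1 NKX2-5 match. Read over their whole width, all 3 Fgf10 peaks held GATA and NKX2-5 matches, which were in 36.8% and 20.3% of all whole peaks, and the upstream and intronic peaks were wider than the upper quartile of the list. The windows with an ETS match were those of Fgf10, Fgf11 and Etv4. The Fgf11 window held 4 GC boxes beside it, seen in the sequence above. Fgfr1 had 2 GATA matches in its farthest peak, both Fgfr2 windows held a GC box, Spred1 held the ISL1 match, and the Etv5 peaks held 1 NKX2-5 and 1 T-box match. TCF/LEF matches were in the windows of Fgf10, Fgf14, Spred2 and the peak of Fgf4 and Fgf15. The Dusp6 and Fgfr4 windows held none of the motifs.

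Further genes of the pathway were read beside the set. Of 52 matched genes for coreceptors, heparan sulphate synthesis, adaptors, RAS and ERK signalling, and other inhibitors and targets, 31 had a peak (59.6%, interval 46.1 to 71.8%), where genes of like domain length gave 16.04. Counts were 7 of 12 for coreceptors and ligand binding (like genes 4.01), 5 of 8 for heparan sulphate enzymes (3.09), 6 of 10 for adaptors (2.49), 5 of 12 for RAS and ERK genes (2.89) and 8 of 10 for other inhibitors and targets (3.57). The last list also held Fgf13, a homologous factor that is neither and had no peak. Ext1, a heparan sulphate polymerase, and Shisa2, which holds FGF receptors in the endoplasmic reticulum, had 4 peaks each. Gpc3, a heparan sulphate proteoglycan, and Myc had 3 each. The 36 genes themselves were at 1.26 times the count for like genes and these further genes at 1.93 times. For the WNT and BMP pathways, 16 of 37 genes (1.37 times) and 16 of 34 genes (1.46 times) had a peak, with Bmp4 at 7, Wnt5a at 3 and Wnt7b at 3. These ratios carry no replicate error and their differences were not tested. The lists were chosen with earlier results of these data known. Matching to the peak density of each chromosome gave 1.05 times for the 36 genes and was not made for the further lists. The ratios were therefore not read as a contrast between the lists.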

How the data were processed

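CUT&RUN was performed by the authors on CP cells with anti-CHD7, IgG or no antibody, with 3 biological replicates each. Per the study's methods and the submitters' processing notes, the authors trimmed reads with fastp (0.20.1), aligned them to mm10 with BWA (0.7.17.4), removed duplicates by molecular identifiers, called peaks in each sample with MACS2 (2.1.2) against IgG and kept those overlapping in at least 2 replicates. The notes also name deepTools (3.1.0). The calling threshold and the joining rule were not given in the sources used here. The deposited values are positions in bp, pooled over replicates, without scores or counts. The reads, the IgG and the input libraries were not analysed here.

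Peak starts were read as counted from 0 and are printed counted from 1. Domains used GENCODE M21 protein-coding genes (1 TSS each, by APPRIS level and then spliced length) and sequence from the RefSeq assembly GRCm38.p6. Expected counts are sums of the share of non-member genes, with domains between 0.8 and 1.25 times as long, that hold a peak. Wilson intervals are at 95%. Every one of the 36 genes is named. Neighbours are named where they share a peak or hold the nearest TSS, and up to 3 genes with the most peaks are named in each further list. A gene of these lists and a sequence that the rule would give are not reported here. The genes, lists and motifs were chosen with earlier results of these data known. The association, distance and motif code was tested on simulated data. Alternatives were other association rules, domain lengths, TSS choices, peak widths and motif windows. Python 3.11.15, numpy 2.4.6, scipy 1.17.1, pysam 0.24.0 and matplotlib 3.10.9 were used.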

Additional observations from a re-analysis of the deposited data

How the results depend on the processing

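The counts of genes depend on how peaks are assigned. With each peak given to the single nearest TSS, 9 of the 36 genes, 11 peaks and 3 feedback and ETV genes were counted. With the basal domains alone the counts were 3 genes, 3 peaks, 1 ligand gene, 0 receptor genes and 2 feedback and ETV genes, at 2.64 times genes of like length. With an extension of up to 100 kb they were 9 genes, 8 peaks and 3 feedback and ETV genes. With only peaks wider than the median they were 7 genes, 10 peaks, 3 ligand genes and 2 feedback and ETV genes. Shorter domains and fewer peaks lower these counts by construction. Any peak within 500 kb of the TSS, an alternative chosen after seeing the data, gave 29 genes. Over the whole peak, motif counts among the 19 peaks rose to 8 for GATA (36.8% of all peaks), 5 for ISL1 (13.4%), 5 for NKX2-5 (20.3%), 2 for T-box (38.0%), 7 for ETS (36%), 10 for TCF/LEF (31.4%) and 3 for MEF2 (9.55%), in longer sequence, and in 200 bp TCF/LEF fell to 2. Apart from basal domains alone, the ratio to genes of like length ranged from 1.05 (peak density of each chromosome) to 1.61 (only peaks nearest to the gene itself, also chosen after seeing the data). Adding Fgf13, which had no peak, left 14 genes with one. Spry3 was not matched. Leaving out a replicate, and a stricter calling threshold, could not be run, because the list is pooled and holds no scores. No paired analysis was possible because the deposited list pools the replicates. The depth is unknown.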

Other observations

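The neighbours Gpc3 and Gpc4, heparan sulphate proteoglycan genes of the FGF pathway, had peaks on a chromosome with few. Fgf16, on the same chromosome, had none in its domain. The list holds 14 peaks on chromosome X (0.0856 per Mb, against 1.42 per Mb in the genome), and 21 of 948 genes there had a peak in the domain. Of these 14 peaks, 3 were in the domain of Gpc3, at -18514, -139965 and 166370 bp from its TSS, and the last of them was also in the domain of its neighbour Gpc4. The peak at -18514 bp was 1289 bp wide. The 4 peaks of Shisa2 were at -16972 bp and, close together, 114175, 115405 and 135288 bp downstream. Flrt3, which encodes a membrane partner of FGF receptors and is named after its value was seen, had a peak with its midpoint 1 bp from the TSS.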
